A study of Mus musculus with 44 samples.

Results

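CTCF peaks at the olfactory and vomeronasal receptor genes of mouse embryonic stem cells (ESCs) are described here in cells with and without *Setdb1*. The receptor genes are the autosomal protein-coding genes of GENCODE vM21 with a symbol starting Olfr, Vmn1r or Vmn2r, 1457 genes in all, of which 1128 are Olfr, 208 Vmn1r and 121 Vmn2r. A peak was counted when its summit lay in such a gene or within 10 kb of it, a territory of 33.6 Mb. This gave 293 of the 58087 autosomal peaks of the *Setdb1* KO list (59698 peaks on all chromosomes) and 179 of the 43284 autosomal peaks of the WT list (44241 peaks).

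The peaks come from a study of how SETDB1 affects CTCF binding and chromatin looping, and 1 list of crosslinked and sonicated CTCF ChIP-seq peaks per condition was analysed. Each list was deposited with a single library and is taken as that library, although the labels name further CTCF libraries and no source used here says whether any were pooled. Both libraries were made from TT2 ESCs (C57BL/6/CBA F1) with the same CTCF antibody. The WT cells are labelled by genotype alone. The *Setdb1* KO cells carry a conditional allele that was deleted with 800 nM 4-OHT for 4 days, and were harvested on day 6. Peak lists hold no reading of *Setdb1* expression, so the deletion was not checked here. The labels give no count of independent cultures or clones. A single library per condition allows neither a replicate error nor a test of WT against *Setdb1* KO. Intervals below are 95% intervals that cover counting error only.

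SETDB1 is a methyltransferase that deposits H3K9me3, a mark of silent chromatin. CTCF is a zinc finger protein that binds a long asymmetric motif, holds cohesin at loop anchors and separates neighbouring domains. Olfr genes encode the odorant receptors of the main olfactory epithelium, and Vmn1r and Vmn2r genes the receptors of the vomeronasal organ. They lie in tandem arrays made by local duplication, each sensory neuron chooses among them, and the arrays are known to carry heterochromatin marks in such neurons. ESCs are not sensory neurons, so the arrays are here studied as gene-dense, duplicated sequence outside their tissue of use.

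The receptor genes fell into 74 clusters when neighbours at most 500 kb apart were chained. Of these, 45 held at least 5 genes, with 1408 genes and 264 *Setdb1* KO peaks between them. The other 29 groups held 49 genes and 29 peaks.

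The sequences of the strongest peaks show the motif matches under their summits. The 4 shared peaks with a CTCF motif and the highest fold enrichment in *Setdb1* KO are printed as 101 bp of mm10 (GRCm38) around the summit, on the strand of the motif, with the 20 bp motif match in capitals. A shared peak is a *Setdb1* KO peak that overlaps a WT peak by at least 1 bp, and fold enrichment is the authors' ratio of the pileup at the summit, the number of fragments stacked there, to the local background.
Olfr1358, chr10:78520761-78520861, plus strand: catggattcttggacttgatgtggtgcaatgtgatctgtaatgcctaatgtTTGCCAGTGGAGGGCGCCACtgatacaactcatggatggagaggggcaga
Olfr71, chr4:43711999-43712099, minus strand: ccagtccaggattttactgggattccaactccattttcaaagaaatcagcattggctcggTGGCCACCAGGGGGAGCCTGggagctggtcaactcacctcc
Olfr313, chr11:58812163-58812263, minus strand: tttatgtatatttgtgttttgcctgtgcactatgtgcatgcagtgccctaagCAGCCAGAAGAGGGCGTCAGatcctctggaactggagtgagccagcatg
Olfr718-ps1, chr5:143150199-143150299, plus strand: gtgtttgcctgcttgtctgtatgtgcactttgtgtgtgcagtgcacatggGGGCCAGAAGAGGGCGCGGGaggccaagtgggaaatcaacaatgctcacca
Each name is that of the nearest receptor gene. These 4 matches scored between 17.5 and 21.5, against a threshold of 12.3 for calling a motif.

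KO-only peaks are those of the *Setdb1* KO list that overlap no WT peak. The 4 strongest with a motif are printed in the same way, and their matches scored between 12.5 and 13.9, below those 4 shared peaks.
Olfr452, chr6:42790363-42790463, minus strand: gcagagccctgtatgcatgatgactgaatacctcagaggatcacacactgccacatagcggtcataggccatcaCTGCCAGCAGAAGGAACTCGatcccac
Olfr402, chr11:74146017-74146117, minus strand: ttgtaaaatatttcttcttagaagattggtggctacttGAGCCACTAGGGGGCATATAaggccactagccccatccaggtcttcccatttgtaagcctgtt
Vmn1r45, chr6:89942906-89943006, plus strand: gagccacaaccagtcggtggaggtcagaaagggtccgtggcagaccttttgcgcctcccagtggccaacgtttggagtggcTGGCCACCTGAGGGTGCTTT
Olfr521, chr7:99760882-99760982, plus strand: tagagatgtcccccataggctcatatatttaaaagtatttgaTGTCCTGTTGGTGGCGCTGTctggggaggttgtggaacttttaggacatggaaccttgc
The Olfr452 match lies in the coding exon of that gene. The last sequence is that of the WT-only peak with a motif, a WT peak that overlaps no *Setdb1* KO peak, with a score of 18.4.
Olfr1124, chr2:87429691-87429791, plus strand: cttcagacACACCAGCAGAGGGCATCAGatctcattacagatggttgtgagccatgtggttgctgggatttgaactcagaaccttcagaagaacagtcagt

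A larger share of the receptor peaks was KO-only than of all peaks. Of the 293 *Setdb1* KO peaks, 118 overlapped no WT peak, 40.3% (34.8 to 46.0), where 28.5% of all autosomal peaks did so. The share was 38.1% for Olfr (90 of 236), 46.4% for Vmn1r (13 of 28) and 51.7% for Vmn2r (15 of 29), with intervals that overlap. WT-only peaks were few: 4 of 179 (2.23%, 0.872 to 5.60), where 3.26% of all autosomal WT peaks were WT-only. When the *Setdb1* KO list was reduced to its strongest peaks until both lists had equal length, the KO-only share fell to 18.3% at receptor genes and 11.5% over all autosomes.

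CTCF peaks were sparse at the receptor genes in both conditions. The density was 8.71 peaks per Mb in *Setdb1* KO (7.74 to 9.77) and 5.32 per Mb in WT (4.57 to 6.16). Over all autosomal sequence it was 23.6 and 17.6 per Mb, and in the sequence of the other protein-coding genes with 10 kb on each side 33.4 and 25.2 per Mb. The intervals of the receptor genes and of these sets do not overlap. Zfp genes, which encode zinc finger proteins, had 35.9 peaks per Mb in *Setdb1* KO and 26.0 in WT and were not sparse. They were taken whether or not they lie in arrays. Among the families, Olfr genes had 10.5 peaks per Mb in *Setdb1* KO (9.23 to 11.96), Vmn1r genes 5.32 (3.53 to 7.69) and Vmn2r genes 4.87 (3.26 to 6.99). The Olfr interval lies above both vomeronasal intervals, which overlap each other.

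**Figure D1:**
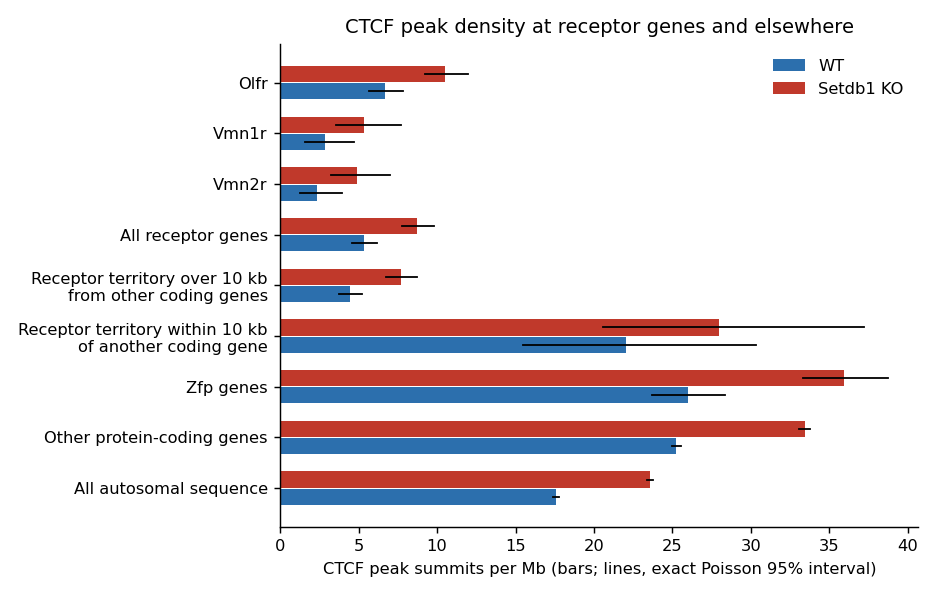
CTCF peak summits per Mb (x axis) in WT (blue) and *Setdb1* KO (red) for the receptor families and for comparison sets (y axis); bars are densities and lines exact Poisson 95% intervals. All 3 receptor families lie below 11 peaks per Mb in both conditions, and the other protein-coding genes lie at 25.2 and 33.4 per Mb.

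Near-identical copies can lack reads, since the authors kept reads with a single best alignment. Of 50-mers sampled from the receptor territory, 78.2% occur once in the genome, against 92.6% near other protein-coding genes. Per Mb of unique 50-mers, the *Setdb1* KO density was 11.1 at receptor genes and 36.1 at the other genes. The share of unique sequence was 84.7% for Olfr, 64.1% for Vmn1r and 66.1% for Vmn2r, and on this scale the densities were 12.4, 8.29 and 7.37 peaks per Mb. The order of the families was the same on both scales, and on both the receptor genes lay below the other genes. The families lay closer together per Mb of unique 50-mers. No family intervals were computed on that scale, so the separation of Olfr from the vomeronasal families holds per Mb of territory only.

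The few stretches of receptor territory that also lie within 10 kb of another protein-coding gene looked different. They cover 1.68 Mb and held 47 *Setdb1* KO peaks, 28.0 per Mb (20.5 to 37.2). The remaining 31.9 Mb held 246, 7.70 per Mb (6.77 to 8.72). In WT the same comparison gave 22.02 and 4.44 per Mb. Close to other genes the density was thus within the counting error of that of the other protein-coding genes, and the territory of receptor genes alone was sparse.

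KO-only status went with peak strength in both sets. Peaks at receptor genes were weaker, with a median fold enrichment of 8.15 (quartiles 5.26 and 13.2) against 10.0 over all autosomal peaks, and 41.0% of them fell in the lowest tercile of all autosomal peaks by fold enrichment. Within that tercile, 94 of 120 receptor peaks were KO-only (78.3%, 70.2 to 84.8), against 69.4% of all autosomal peaks. In the middle tercile, 24 of 112 were KO-only (21.4%, 14.8 to 29.9), against 15.5%. In the highest tercile, 0 of 61 were KO-only, which allows a share of up to 5.92%, against 0.717%. The interval of the receptor peaks excluded the autosomal share in the lowest tercile and included it in the middle and highest.

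**Figure D2:**
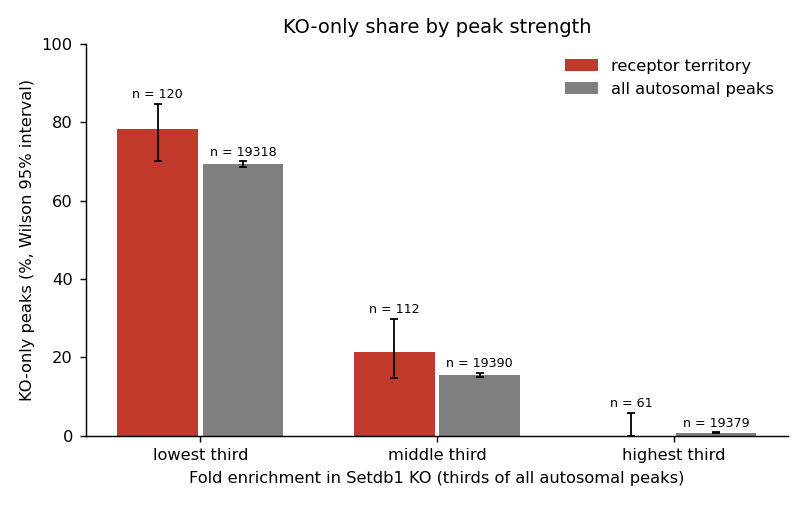
Share of KO-only peaks (y axis, %, with Wilson 95% intervals) in the lowest, middle and highest tercile of all autosomal *Setdb1* KO peaks by fold enrichment (x axis), for receptor territory (red) and all autosomal peaks (grey), with the number of peaks above each bar. Both sets drop steeply with strength, from 78.3% and 69.4% to 0 and 0.717%.

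Within the receptor territory the KO-only share also differed with the neighbourhood. Close to other protein-coding genes 10 of 47 receptor peaks were KO-only (21.3%, 11.99 to 34.9), and farther away 108 of 246 (43.9%, 37.8 to 50.1). These intervals do not overlap. Among the receptor peaks the median fold enrichment was 12.3 near other genes and 7.64 away from them. In cluster sequence farther than 10 kb from any receptor gene, the KO-only shares were alike. There they were 40.9% (34.05 to 48.0) near other protein-coding genes and 41.8% (34.3 to 49.8) away from them.

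Of the 1457 receptor genes, 290 (19.9%) had a *Setdb1* KO peak within 10 kb and 188 (12.9%) a WT peak, against 81.6% and 74.7% of the other protein-coding genes. For Olfr the shares in *Setdb1* KO were 21.3%, for Vmn1r 13.0% and for Vmn2r 19.01%. In the same windows 138 receptor genes (9.47%) had a KO-only peak, against 45.5% of the other genes. A *Setdb1* KO but no WT peak lay in the windows of 105 of the 1457 receptor genes and of 1421 of the 19350 other genes, about the same share of all genes. Since 12.9% of the receptor genes and 74.7% of the others had a WT peak, a far smaller part of the others could gain a first one. Among genes without a WT peak, such a gain was thus less frequent at receptor genes. Of the 293 peaks, 214 had a single receptor gene within 10 kb, and the others up to 3.

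The starts of receptor genes were rarely occupied. A *Setdb1* KO summit lay within 1 kb of a transcription start of 28 receptor genes (1.92%) and a WT summit of 15 (1.03%), against 26.7% and 21.3% of the other protein-coding genes. These were 24 Olfr and 4 Vmn1r genes, and 0 of the 121 Vmn2r genes, which allows a share of up to 3.08%. A KO-only summit lay at 14 of the 28, and at 1582 of the 5164 starts of other protein-coding genes with a *Setdb1* KO summit. Of all starts these were 0.961% and 8.18%. Of the 293 summits, 29 lay within 1 kb of a receptor start, 68 elsewhere in a receptor gene body, 21 within 1 kb of another annotated start, 14 in other gene bodies (8 protein-coding, 6 of other types) and 161 between genes.

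The strongest peak at a receptor start was that of Olfr557 (chr7:102695280-102695839), 304 bp from the start, with a pileup of 57 fragments in WT and 84 in *Setdb1* KO. At Vmn1r80 (chr7:12188736-12189268) the pileups were 29 and 53 fragments. The peak 774 bp from the start of Olfr1347 (chr7:6500262-6500742), inside the body of its neighbour Olfr1348, had 16 and 62 fragments. Olfr304 (chr7:86385756-86386185), with the summit in its coding exon, had 26 and 52. At Olfr1499 (chr19:13818790-13819197) 37 and 64 fragments were found, and at Olfr556 (chr7:102665360-102665773) 29 and 44. All 6, chosen for their height in *Setdb1* KO, were shared and higher there, and the interval of the ratio included 1 at Olfr556 (1.52, 0.928 to 2.52). Over all autosomal paired sites 90.9% were above 1 and 31.8% had the interval above 1. At other starts the pileup was lower in *Setdb1* KO, as at Olfr1495 (20 fragments in WT and 15 in *Setdb1* KO) and Olfr658 (28 and 26). These differences lie within counting error, and 0 of the 174 paired receptor sites had the interval of the ratio below 1.

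By exon, 18 *Setdb1* KO summits lay in coding exons of receptor genes, 36 in their other exons, 36 in introns and 203 in the flanks. Per Mb this was 11.5 in coding exons (6.79 to 18.1), 9.33 in other exons, 4.92 in introns (3.44 to 6.81) and 9.72 in flanks (8.43 to 11.1). Introns were sparser than flanks beyond the counting intervals. The coding density overlapped that of flanks.

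Odorant receptor genes have a single coding exon of about 1 kb, and 15 of the 18 coding summits lay in Olfr genes. Of the 18, 10 were KO-only (55.6%, 33.7 to 75.4), an interval that includes the 40.3% of all receptor peaks and lies above the 28.5% of all autosomal peaks. A motif was found in 6 and repeat-masked sequence in 0, where 57.7% and 29.4% of all autosomal peaks had them. The KO-only ones included Olfr452, Olfr434, Olfr30, Olfr15, Olfr95 and Olfr1419 as well as Vmn1r220, Vmn1r222 and Vmn2r75. The strongest was Olfr452 with 34 fragments, and the other 9 had between 12 and 24. In WT, 9 summits lay in coding exons, among them a WT-only summit in Olfr38.

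The 10 strongest peaks were all shared and mostly intergenic. The highest fold enrichment, 34.8, was at chr10:78520126-78521282, 245 bp from Olfr1358 and 592 bp from the start of Gm47944, with a pileup of 85 fragments in WT and 110 in *Setdb1* KO. Next came chr4:43711717-43712351 near Olfr71, with 90 and 129 fragments. At chr11:58812011-58812667 near Olfr313 they were 66 and 103. These 3 also carry the first motifs printed above. The peak at chr5:143149589-143150715 near Olfr718-ps1 had 100 fragments in *Setdb1* KO and pairs with no single WT peak. At chr8:72105108-72105674 near Olfr374 the pileups were 82 and 114, at chr1:182149879-182150365 near Vmn1r1 69 and 93, and at chr11:74371579-74372110 near Olfr412 81 and 105. The remaining strong sites lay near Olfr1349 (chr7:6526047-6526552, 87 and 113 fragments), inside Vmn2r24 (chr6:123793542-123794271, 51 and 81) and near Olfr94 (chr17:37203592-37204067, 73 and 95). All 9 paired sites were higher in *Setdb1* KO, by 1.29 to 1.59 times, with the interval above 1 at 4 of them, where 90.9% of all autosomal paired sites were above 1 and 31.8% had the interval above 1. These sites were chosen for their height in *Setdb1* KO. A motif was found in 7 of the 10.

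The 10 strongest KO-only peaks had pileups of 29 to 45 fragments, all below the 81 to 129 of those 10 peaks, and 3 of them held a motif. They were led by Olfr452 (chr6:42790269-42790600, fold enrichment 10.9, 34 fragments), a site 5.7 kb from Olfr784 (chr10:129378257-129378527, 10.6, 34) and a site near Vmn2r112 (chr17:22630507-22631189, 10.5, 40). Inside Olfr1381 (chr11:49554087-49554393) and inside Olfr1382 (chr11:49536762-49537041) there were 36 and 30 fragments. Near Olfr498 (chr7:108476273-108476630) the pileup was 38, and near Olfr402 (chr11:74145876-74146258) it was 45. The others lay near Olfr427 (chr1:174103809-174104064, 30 fragments), near Vmn1r45 (chr6:89942850-89943096, 29) and inside Vmn1r1 (chr1:182154879-182155379, 34). Vmn1r1 thus had a KO-only peak in its body and a shared peak, one of the 10 strongest, beside it.

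The 4 WT-only peaks were weak, with 12 to 20 fragments. They lay near Olfr1271 (chr2:90259383-90259631, 20 fragments), in Olfr38 (chr6:42762323-42762632, 18), near the start of Olfr1124 (chr2:87429652-87429874, 14) and in Olfr943 (chr9:39188711-39188896, 12). No Vmn1r or Vmn2r gene had a WT-only peak, among 29 WT peaks. This allows a share of up to 11.7%, which includes the 3.26% of all autosomal WT peaks.

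Shared sites were higher in *Setdb1* KO by about as much as elsewhere. At 174 sites where a single peak of each list overlapped, the ratio of *Setdb1* KO to WT pileup had a median of 1.39 (quartiles 1.196 and 1.62), against 1.36 at all 40930 autosomal paired sites. The ratio was above 1 at 161 sites, below 1 at 11 and equal to 1 at 2, where 90.9% of all autosomal paired sites were above 1. Its interval lay above 1 at 48 of the 174 sites, where 31.8% of all did so, and below 1 at 0. A ratio of at least 2 was found at 16 sites (9.20%), where 9.44% of all autosomal paired sites reached it. The medians were 1.36 for Olfr (145 sites), 1.52 for Vmn1r (15) and 1.47 for Vmn2r (14), and all 29 vomeronasal sites were above 1. Pileups were not scaled to library totals, which the lists do not give. The lowest background solved from the lists, a measure of mean coverage, was 2.096 fragments in WT and 2.189 in *Setdb1* KO.

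**Figure D3:**
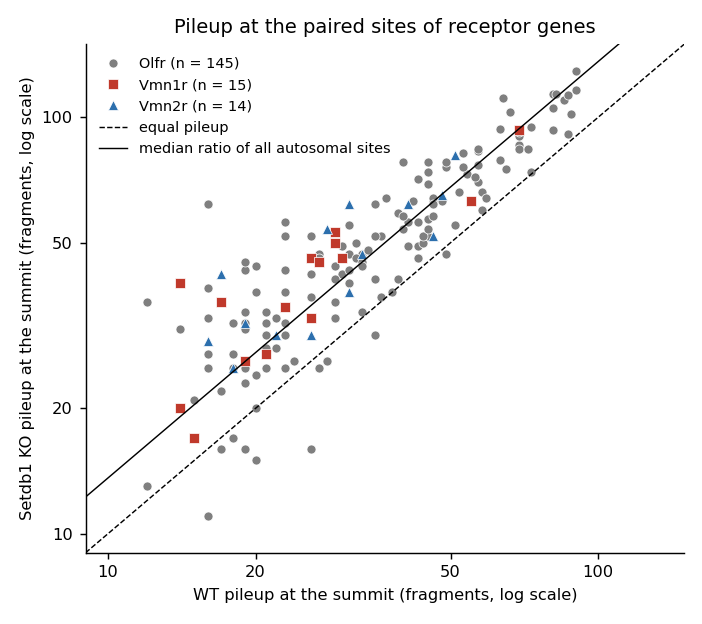
Pileup at the summit in WT (x axis) and *Setdb1* KO (y axis), in fragments on log scales, at the 174 paired sites of Olfr (circles), Vmn1r (squares) and Vmn2r (triangles) genes. Points cluster along the solid line of the autosomal median ratio, 1.36, and 11 lie below the dashed line of equal pileup.

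The highest ratio among the 145 sites with at least 50 fragments in both libraries together was 3.88 (2.21 to 7.19), at chr2:88846186-88846513 near Olfr1204 and again at the Olfr1347 and Olfr1348 site, each with 16 fragments in WT and 62 in *Setdb1* KO. A site near Vmn1r9 (chr6:57063731-57064052) had 14 and 40 fragments, a ratio of 2.86. Near Vmn2r83 (chr10:79502867-79503171) 17 and 42 fragments gave 2.47, and near Olfr1338 (chr4:118746710-118747089) 16 and 39 gave 2.44. At the other end, the ratio was 0.857 (0.508 to 1.44) inside Olfr90 (chr17:37084640-37084986), with 35 fragments in WT and 30 in *Setdb1* KO. Sites inside Olfr649, near Olfr521 and at the start of Olfr658 had ratios of 0.926, 0.929 and 0.929, and a site near Olfr288 0.959. Both sets of 5 were chosen for these ratios, which are a description.

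CTCF motifs were less frequent at receptor peaks. A motif within 50 bp of the summit was called at 126 of 293 *Setdb1* KO peaks (43.0%, 37.5 to 48.7), against 57.7% of all autosomal peaks. The shares were 55.4% and 66.1% at shared peaks, and 24.6% (29 of 118) and 36.5% at KO-only peaks. By family, 45.8% of Olfr, 28.6% of Vmn1r and 34.5% of Vmn2r peaks held a motif. Under a looser threshold, the 95th in place of the 99th percentile of control windows, the shares were 71.7% at receptor peaks (66.3 to 76.5) and 74.97% over all autosomes, and the interval then included the autosomal share. Within terciles of fold enrichment the motif share was 20.0% against 31.8% in the lowest, 49.1% against 58.7% in the middle and 77.0% against 82.6% in the highest.

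The sequence around the summits was poorer in CpG, the dinucleotide at which DNA is methylated. No CpG lay within 50 bp of the summit at 46.1% of receptor peaks, against 29.2% of all autosomal peaks, and among KO-only peaks at 52.5% against 37.0%. Median GC content was 46.5% against 50.5%. Repeat-masked sequence at the summit was found at 34.8% of receptor peaks (29.6 to 40.4) and 29.4% of all, and at 40.7% and 41.5% of KO-only peaks. Receptor peaks thus had a lower motif share, CpG and GC content than all autosomal peaks, and a higher KO-only share. Between the families this did not hold throughout. Vmn2r peaks had the highest KO-only share (51.7%) and a median GC content of 47.5%, against 47.0% for Olfr and 46.0% for Vmn1r. The part of CpG and GC content in the KO-only share was not tested.

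Some receptor peaks were copies of each other. Between windows of 100 bp to each side of the 293 summits, 306 pairs aligned over at least 100 bp, and 87 peaks were in a pair. In 262 pairs both summits were repeat-masked. Of the 21 pairs within a cluster, 8 were free of masked repeats at both summits, with an identity of 85.9% to 97.9% over at least 142 bp and summits 11.9 to 48.5 kb apart. In these 8 pairs the copies had the same status, 5 both shared and 3 both KO-only. Among the 13 masked pairs within a cluster, the status was the same in 8. Pairs were found by sequence likeness after the peaks were known and are given as a description.

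Sequences of 2 such pairs are printed on the plus strand to show how alike the bound copies are. In the second line of each pair, capitals mark bases that differ from the first line or are absent from it. The pair near Olfr54 and Olfr1375 was shared, with 69 and 30 fragments in WT and 90 and 42 in *Setdb1* KO. Here 86 of 101 aligned bases were identical, and a motif was called in the copy with the higher pileup and not in the other. Around their WT summits the best matches scored 13.4 and 11.8, above and just below the threshold of 12.3.
Olfr54, chr11:51032991-51033091: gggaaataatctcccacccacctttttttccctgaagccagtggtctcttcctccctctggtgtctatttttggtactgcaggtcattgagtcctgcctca
Olfr1375, chr11:51053329-51053426: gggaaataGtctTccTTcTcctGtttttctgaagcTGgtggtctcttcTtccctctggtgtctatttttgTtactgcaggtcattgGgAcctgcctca
The pair inside Olfr1382 and Olfr1381 was KO-only, with 30 and 36 fragments in *Setdb1* KO, 94 of 102 aligned bases identical and no motif called in either copy.
Olfr1382, chr11:49536852-49536952: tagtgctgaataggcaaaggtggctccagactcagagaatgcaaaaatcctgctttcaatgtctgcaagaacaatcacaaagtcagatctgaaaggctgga
Olfr1381, chr11:49554234-49554335: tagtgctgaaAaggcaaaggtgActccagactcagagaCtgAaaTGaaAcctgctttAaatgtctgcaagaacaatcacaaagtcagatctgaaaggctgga
Further shared pairs without masked repeats lay at Vmn2r8 and Vmn2r9 (46 and 33 fragments in WT, 52 and 47 in *Setdb1* KO), at Vmn1r9 and Vmn1r10 (14 and 21, then 40 and 27) and in Olfr1174-ps and Olfr1175-ps (18 and 18, then 25 and 27). A KO-only pair near Olfr54 and Olfr1375 had 20 and 27 fragments, and that in the coding exons of Vmn1r220 and Vmn1r222 had 15 and 14.

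Peaks were spread over most clusters. Among the 45 clusters of at least 5 genes, 41 held a *Setdb1* KO peak and 37 a WT peak, 34 held more *Setdb1* KO than WT peaks, 11 held equal numbers and 0 held fewer. KO-only peaks were found in 34 of the 45 and WT-only peaks in 3. The *Setdb1* KO list was longer everywhere, with 58087 autosomal peaks against 43284 in WT. Of all autosomal peaks 28.5% were KO-only in that list and 3.26% WT-only in the WT list. More *Setdb1* KO than WT peaks in a cluster is therefore not particular to these clusters. The median density per cluster was 8.73 peaks per Mb in *Setdb1* KO and 4.67 in WT.

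The largest cluster, Olfr987 to Olfr1274-ps on chromosome 2 (chr2:85330779-90403897, 227 genes), was among the sparse ones. It held 18 *Setdb1* KO and 9 WT peaks, of which 10 were KO-only and 2 WT-only, a density of 4.37 per Mb (2.59 to 6.90). The chromosome 7 cluster Olfr543 to Olfr692 (chr7:102476579-105369355, 129 genes) held more peaks on fewer genes, 28 in *Setdb1* KO and 17 in WT with 11 KO-only, 13.7 per Mb (9.12 to 19.8). The intervals of these clusters do not overlap, although 84.4% and 85.0% of their 50-mers are unique. On chromosome 9, Olfr160 to Olfr986 (chr9:37708964-40190134, 95 genes) held 10 and 9 peaks, 2 of them KO-only. Olfr1417 to Olfr1505 on chromosome 19 (chr19:11826803-13921866, 66 genes) held 17 and 11 with 6 KO-only, 12.8 per Mb. The big odorant receptor clusters thus differed in density.

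Several clusters of medium size more than doubled their peak number. The cluster Olfr9 to Vmn2r87 (chr10:128989431-130497396, 64 genes) held 3 peaks in WT and 8 in *Setdb1* KO, with 5 KO-only. Olfr467 to Olfr519 (chr7:107812263-108894420, 42 genes) held 4 and 9, with 5 KO-only. In Vmn2r90 to Vmn1r237 (chr17:17703747-21314912, 36 genes) the numbers were 2 and 5, with 3 KO-only. With counts this small, the WT and *Setdb1* KO density intervals overlap in each of these clusters. Olfr24 to Olfr18 (chr9:18751507-20336094, 37 genes) went from 1 peak to 3, and Vmn1r72 to Vmn1r89 (chr7:11664479-13220657, 22 genes) from 2 to 5. About 2 times as many peaks were listed in *Setdb1* KO in Olfr90 to Olfr136 (chr17:37083871-38336643, 49 genes, 4 and 8 peaks), Olfr291 to Vmn2r79 (chr7:84853553-87044941, 33 genes, 2 and 4), Olfr20 to Olfr412 (chr11:73350783-74366218, 30 genes, 3 and 6), Olfr722 to Vmn2r89 (chr14:49894258-51464172, 30 genes, 4 and 8) and Olfr1370 to Vmn1r223 (chr13:21069334-23253906, 49 genes, 5 and 9).

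Smaller gains or none were counted in the rest. Olfr338 to Olfr368 (chr2:36373519-37332772, 28 genes) held 4 and 7 peaks, Olfr693 to Olfr716 (chr7:106675005-107150581, 26 genes) 6 and 8, and Olfr458 to Olfr47 (chr6:42459979-43236959, 20 genes) 3 and 5, with 3 KO-only and 1 WT-only in the last. Vmn1r4 to Vmn1r31 (chr6:56924015-58475330, 28 genes) held 3 shared peaks, and Olfr172 to Olfr209 (chr16:58759544-59363993, 25 genes) 1, with no KO-only peak in either.

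**Figure D4:**
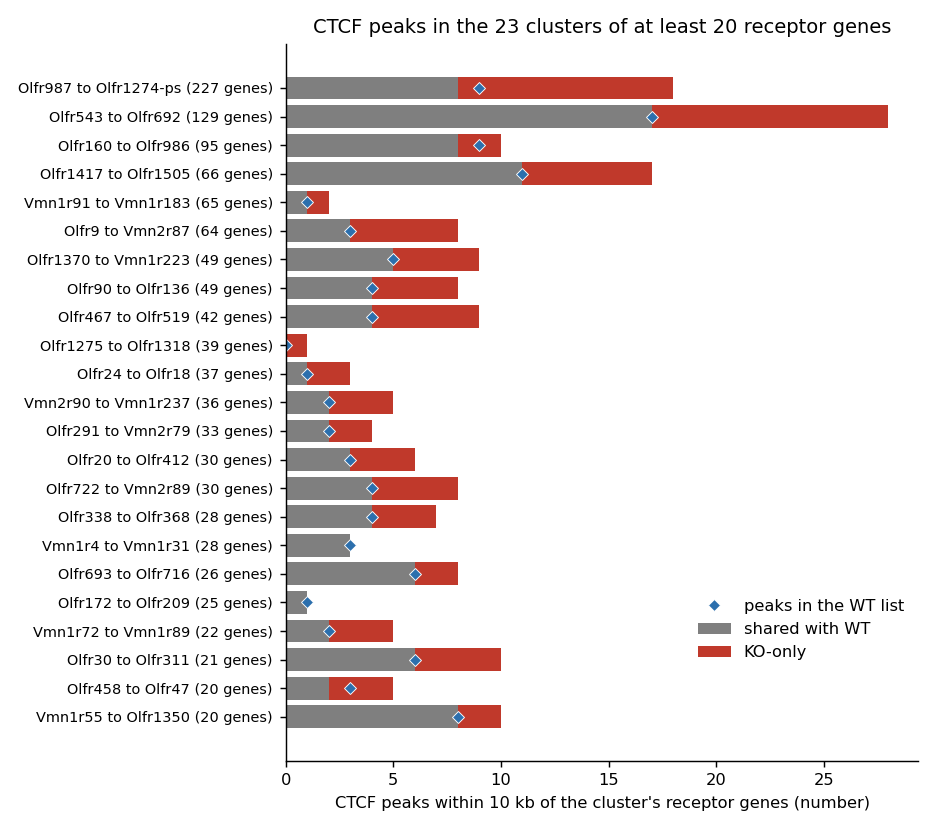
Number of CTCF peaks (x axis) within 10 kb of the receptor genes of each of the 23 clusters of at least 20 genes (y axis, named by first and last gene), with *Setdb1* KO peaks split into shared (grey) and KO-only (red) and the number in the WT list as a blue diamond. The bars run from 1 peak in 2 clusters to 28 in Olfr543 to Olfr692, while the cluster with the most genes, Olfr987 to Olfr1274-ps, has 18.

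Among clusters of at least 10 genes, the densest was Olfr30 to Olfr311 on chromosome 11 (chr11:58454105-58844111, 21 genes), with 10 *Setdb1* KO and 6 WT peaks, 26.2 per Mb (12.6 to 48.2). Vmn1r55 to Olfr1350 (chr7:5129291-6571401, 20 genes) followed with 10 and 8 peaks, 21.7 per Mb, and Olfr62 to Olfr1328 (chr4:118658952-118938612, 13 genes) with 6 and 4, 21.3 per Mb. Of the territory of Olfr30 to Olfr311, 28.0% lies within 10 kb of another protein-coding gene, with 5 of its 10 *Setdb1* KO peaks. For Vmn1r55 to Olfr1350 this was 8.60% of the territory, also with 5 of 10 peaks, and for Olfr62 to Olfr1328 0%. Among smaller clusters, Olfr70 to Olfr155 on chromosome 4 (chr4:43694784-43857595, 6 genes) had 9 peaks in each list, all shared, and the highest density of the 45, 79.0 per Mb with a lower bound of 36.1. Of its territory 28.5% lies within 10 kb of another protein-coding gene, with 3 of its 9 *Setdb1* KO peaks.

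The emptiest clusters differed in their share of unique 50-mers. This share is a guide to where reads could be placed and not a measure of it, since the paper reports longer reads and mismatches were allowed. Vmn2r29 to Vmn2r37 (chr7:7231327-9223653, 17 genes) held 0 peaks in both lists, but 13.5% of its 50-mers are unique. Vmn1r91 to Vmn1r183 (chr7:20099680-24063554, 65 genes), with 26.0% unique, held 2 and 1, or 1.40 per Mb. Olfr1275 to Olfr1318 (chr2:111230360-112159157, 39 genes) held 1 *Setdb1* KO and 0 WT peaks, 1.30 per Mb (0.0330 to 7.26), although 81.6% of its 50-mers are unique. For the first pair a lack of peaks and a lack of mappable reads cannot be told apart, and for Olfr1275 to Olfr1318 the low count was measured on mostly unique sequence.

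The longest runs of consecutive receptor genes without a *Setdb1* KO peak within 10 kb showed the same contrast. The longest ran over 63 genes from Vmn1r91 to Vmn1r180 (chr7:20099680-23955691), with 15.8% unique 50-mers, although 13 *Setdb1* KO and 7 WT peaks lay in its span farther than 10 kb from the genes. On chromosome 9, 40 genes from Olfr901 to Olfr44 (chr9:38429455-39493995) had none, with 85.7% unique and 1 *Setdb1* KO and 2 WT peaks in the span. On chromosome 2, 34 genes from Olfr1280 to Olfr1318 (chr2:111314017-112159157) had none, with 79.1% unique. In the last run no peak of either list lay anywhere in its 845 kb.

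Per Mb of receptor territory, cluster edges were denser than interiors. In the 39 clusters with at least 5 genes and 300 kb, the edge was taken from 10 kb outside to 50 kb inside the outermost gene. Edges held 63 *Setdb1* KO peaks, 16.2 per Mb (12.4 to 20.7), and interiors 175, 6.39 per Mb (5.48 to 7.41), a ratio of 2.53 (1.87 to 3.39). In WT 41 and 98 peaks gave a ratio of 2.94 (1.99 to 4.27), and KO-only peaks, 22 and 80, a ratio of 1.93 (1.15 to 3.13). The edge was denser in 24 clusters and the interior in 12, and 3 had no peak in either. Of the edge territory 15.7% lies within 10 kb of another protein-coding gene, and of the interior 3.06%. Farther from other genes than that, the ratio in *Setdb1* KO was 2.52 (1.78 to 3.50), and unique sequence was alike, 77.7% in edges and 77.8% in interiors.

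The density was highest outside the outermost gene. The outer 10 kb held 25 *Setdb1* KO peaks, 32.1 per Mb (20.7 to 47.3), the inner 50 kb 38, 12.2 per Mb (8.63 to 16.7), and the interior 6.39. Against the interior the ratio was 5.02 (3.16 to 7.66) for the outer and 1.91 (1.31 to 2.72) for the inner part. Of the outer 10 kb 31.2% lies within 10 kb of another protein-coding gene, against 11.8% of the inner part and 3.06% of the interior. With gene bodies alone counted, and no flanks, 12 edge and 62 interior peaks gave a ratio of 1.22 (0.596 to 2.28), which includes 1. The split and its ratios were chosen after the data were seen.

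The profile across cluster ends showed a step. Counting all sequence, the *Setdb1* KO density was 33.3 to 38.2 peaks per Mb in the 4 bins of 50 kb outside the end, and 12.8, 11.8, 13.8 and 19.3 per Mb in the 4 bins inside. In WT it was 24.4 to 29.0 per Mb outside and 7.18, 5.13, 8.21 and 13.9 inside. The intervals on either side of the end do not overlap, and the density did not fall further inwards. With all sequence counted, the first bin inside was thus not denser than those further in, unlike the edges per Mb of receptor territory. KO-only shares were 26.2% to 31.3% outside, and 44.0%, 56.5%, 44.4% and 28.2% inside. Unique 50-mers made up 80.4% to 84.4% of the outer and 75.1% to 76.1% of the inner bins.

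**Figure D5:**
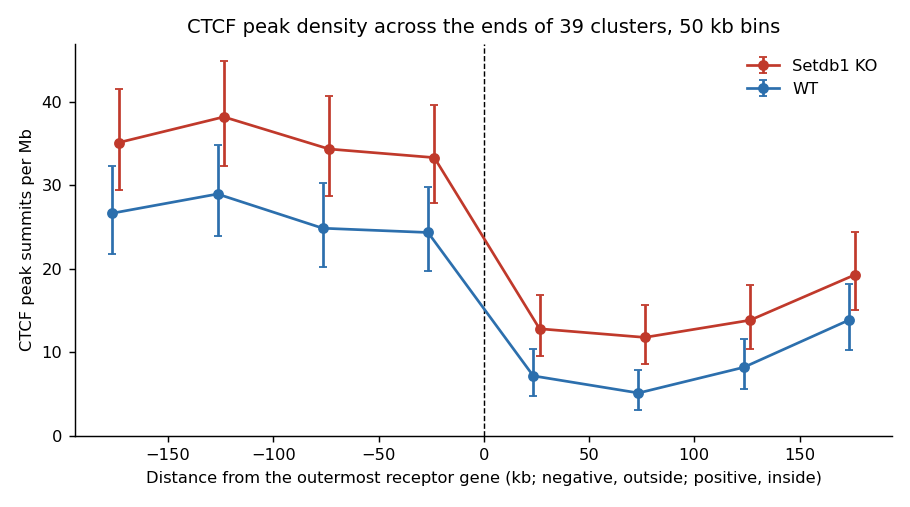
CTCF peak summits per Mb (y axis, with exact Poisson 95% intervals) in 50 kb bins by distance from the outermost receptor gene of 39 clusters (x axis, kb, negative outside and positive inside), in *Setdb1* KO (red) and WT (blue). Density drops at the cluster end (dashed line) from 33.3 to 12.8 per Mb in *Setdb1* KO and from 24.4 to 7.18 in WT.

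Gaps inside the clusters were sparse as well where no other protein-coding gene lay within 10 kb. In the spans of the 45 clusters, sequence farther than 10 kb from any receptor gene held 339 *Setdb1* KO peaks on 23.2 Mb, 14.6 per Mb, with 41.3% KO-only. Near other protein-coding genes these gaps had 28.4 peaks per Mb (24.5 to 32.8), and elsewhere 9.17 (7.77 to 10.7). Per Mb of all sequence, the gaps without other genes were thus close to the receptor territory in density. Of their 50-mers 61.3% are unique, against 78.2% in the receptor territory, so per Mb of unique 50-mers the gaps were denser. Their KO-only share was 41.8% (34.3 to 49.8), against 40.9% in the gaps near other genes.

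At the edges, 29 peaks held a CTCF motif, and the motif pointed into the cluster in 19 of them (65.5%, 47.4 to 80.1). The interval includes equal numbers of both directions. Among shared edge peaks 15 of 22 pointed inwards, and among KO-only ones 4 of 7.

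KO-only shares were 34.9% at edges (24.3 to 47.2) and 45.7% in interiors (38.5 to 53.1), with overlapping intervals. The median pileup ratio at shared sites was 1.29 at edges (41 sites) and 1.41 in interiors (95 sites).

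Genes that act with the receptors mostly had CTCF peaks. Of 22 genes of receptor choice and olfactory or vomeronasal signalling, 20 had a *Setdb1* KO peak within 10 kb and the same number a WT peak, and 10 had a KO-only peak (45.5%). Of the other protein-coding genes 81.6%, 74.7% and 45.5% had them. Adcy3, the adenylate cyclase of odorant signalling, had 5 peaks in both lists, and Lhx2 and Ldb1, which act at the enhancers of odorant receptor genes, 2 each in both. Ebf3, a transcription factor of the olfactory lineage, had 2 in WT and 6 in *Setdb1* KO, with 4 KO-only, and Ebf1 5 and 8. Fewer peaks in *Setdb1* KO were listed at Atf5, a transcription factor of olfactory neurons (5 and 4), and at Trpc2, the ion channel of vomeronasal signalling (4 and 3). Rtp1 and Rtp2, which carry odorant receptors to the cell surface, had 0 in both. Of 79 genes of other chemoreceptor families, 25 had a *Setdb1* KO peak (31.6%, 22.4 to 42.6), among them 10 of 15 Taar and 3 of 35 Tas2r genes.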

How the data were processed

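CTCF ChIP-seq peaks of WT and *Setdb1* KO ESCs were analysed, 1 list per condition, taken as 1 library each. The other assays and the second libraries were not analysed here. Reads were aligned by the authors with Bowtie 1.2 to mm10 (GRCm38), with up to 3 mismatches and 1 alignment kept. Duplicates were removed by Picard, and MACS2 2.1.0 was run with a genome size of 2.43e+09 and a q of 0.05. The deposited fold enrichment is the ratio of pileup to background, each with a pseudocount. The deposited p and q are -log10 values, and the deposited score is the -log10 q as a scaled whole number. The remaining deposited column is the summit offset in bp. Library totals are not in the lists.

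Peaks overlapping by at least 1 bp were shared. The pileup was solved from fold enrichment and the Poisson p, within 0.001 of -log10 p, for 100% of WT and 99.99% of *Setdb1* KO peaks and every receptor peak. It sets the precision of each ratio (exact Clopper-Pearson interval). Shares have Wilson and densities exact Poisson 95% intervals, and no p-value was computed. Density is per Mb of receptor genes plus 10 kb on each side. A CTCF matrix of 20 bp was built from 921 of the 1000 shared peaks with the highest -log10 q, and its best match on both strands within 50 bp of a summit counted as a motif when it scored above the 99th percentile of the same windows placed 1 kb to the left. Unique 50-mers were sampled every 100 bp and counted over the genome, both strands. GENCODE vM21 supplied the genes and their starts (promoter, 1 kb on either side), and the RefSeq GRCm38 assembly the sequence. Alike windows were found by BLASTN 2.17.0 at an E-value up to 1e-20. Pileup, motif and uniqueness steps were tested on simulated data. The software was samtools 1.23.1, Python 3.11.15, pysam 0.24.0, biopython 1.88, numba 0.67.0, scipy 1.17.1, numpy 2.4.6, pandas 2.3.3 and matplotlib 3.10.9.

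The receptor genes, the other lists and the naming rule were chosen with earlier results of these data known. Named were clusters of at least 20 genes, the 3 densest and 3 sparsest of at least 10 genes, the 10 strongest, 10 strongest KO-only and up to 5 WT-only peaks, the 5 highest and 5 lowest pileup ratios at sites with at least 50 fragments, the 6 strongest peaks at receptor starts and the 3 longest runs without a peak. Coding exons, alike sequences, gaps, terciles of fold enrichment and the smaller cluster Olfr70 to Olfr155 were taken up after the data were seen. Of the 8 unmasked alike pairs within a cluster, 1 is counted but not described here.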

Additional observations from a re-analysis of the deposited data

How the results depend on the processing

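Of 67 values recomputed under 22 alternatives, 46 stayed within the reported 95% interval (quartiles for the pileup ratio) and 21 left it. A turn in direction, to the other side of 1, was defined only for the edge to interior ratio and the pileup ratio. Among their values 0 turned. For shares and densities no direction was defined. No paired analysis was possible because 1 library per condition was analysed and replicate numbers in the labels pair no CTCF peak lists used here. The KO-only share was 34.6% with a -log10 q of at least 5 in the counted list, 18.3% with lists of equal length and 49.1% for Vmn1r and Vmn2r. Over all autosomes it was 11.5% with equal lengths, and it stayed below that of receptor peaks under the 5 list and overlap alternatives run on both. The WT-only share was 7.82% with reciprocal overlap of 50% (11.2% over all autosomes), 10.1% with equal lengths (10.9%) and 0 for Vmn1r and Vmn2r. Density in *Setdb1* KO was 7.73 per Mb when both lists were held to a -log10 q of 5 or more, 5.86 with equal lengths, 7.06 in gene bodies alone, 12.1 with windows of 50 kb, 10.5 for Olfr, 5.08 for Vmn1r and Vmn2r, 11.1 and 12.2 per Mb of unique 50-mers and 36-mers, and 7.70 away from other protein-coding genes. The edge to interior ratio was 1.22 in gene bodies alone and 1.91 to 2.9 under the other 13. The motif share was 55.3% with equal lengths, 31.1% in gene bodies alone, 31.6% for Vmn1r and Vmn2r, 71.7% at the 95th percentile and 27.3% within 100 bp of the summit (40.1% over all autosomes). The median pileup ratio ranged from 1.36 to 1.51. The alternatives away from other genes and without the outer 10 kb were chosen after seeing the data. Causes were not tested. With pileups of 10 to 129 fragments, a change of a few fragments at a weak peak was not detectable at this depth, and a peak missing from a list may have been under its threshold.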
